A study of Mus musculus with 48 samples.

Results

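The comparison described here asked what hydralazine, given together with angiotensin II, did to gene expression in the mouse hippocampus. Its members are 12 of the 48 libraries of the study, 6 from the hippocampus of mice given angiotensin II and 6 from the hippocampus of mice given both drugs, chosen by their labels alone. All mice were male wild-type C57Bl6. An osmotic minipump delivered angiotensin II at 0.7 mg per kg per day for 2 weeks, and the mice given both drugs also had hydralazine at 50 mg per kg in the drinking water. The hippocampal libraries of mice given saline vehicle or vehicle plus hydralazine, and the brain hemisphere libraries of the angiotensin II and both-drug groups, serve below for values side by side (6 libraries per group). Ages, blood pressures and whether each library is a separate mouse are not in the labels, and the p-values below therefore speak of library-to-library spread, which may be technical.

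Angiotensin II is the effector peptide of the renin-angiotensin system. It constricts arteries and promotes salt retention, and its slow infusion is a standard way to raise blood pressure in mice. Hydralazine is a direct arterial vasodilator that lowers blood pressure and has also been described as an inhibitor of DNA methylation and of HIF prolyl hydroxylases. The hippocampus serves memory through the dentate gyrus and the CA fields. Its excitatory neurons respond to synaptic activity within minutes by transcribing immediate early genes, which encode transcription factors such as Fos, Egr1 and Npas4, the synaptic protein Arc, and feedback regulators such as the phosphatase Dusp1. Calcium and cAMP signals reach many of these genes through the factor CREB, which binds the cAMP response element (CRE), and through serum response factor, which binds the CArG box.

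No gene passed the test between both drugs and angiotensin II. Of 14432 genes with at least 0.5 FPKM (fragments for each kilobase of a gene and 1000000 reads) in at least 6 of the 12 libraries, 0 (0%) had a Benjamini-Hochberg adjusted p under 0.05 with limma on log2(FPKM + 0.5), and the smallest adjusted p was 0.818. An unadjusted p under 0.05 was reached by 527 genes, where a uniform spread of p-values gives 722; 279 of them (1.93% of genes tested) averaged lower with both drugs and 248 (1.72%) higher. The 2 groups did not overlap at all for 34 genes that were lower with both drugs (0.236%) and for 26 that were higher (0.180%). The median log2 difference over all genes tested was -0.02. For 80.9% of genes the 95% interval of the difference lay within a 2-fold change either way, and for 52.1% it lay within 1.5-fold, and for the remaining genes the spread leaves larger differences within the interval.

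Several libraries stood apart within their groups, and the comparison was therefore repeated without them. Angiotensin II library 3 listed 14043 genes above 0 and both-drug library 5 listed 12915, where the other 10 libraries listed between 18914 and 23044. Angiotensin II library 6 had 5.74% of its reads in mitochondrial genes, the lowest share of the 12, and the lowest mean level of ribosomal protein genes. Its deviations from the other 5 libraries of its group correlated with the difference of hemisphere minus hippocampus (Pearson r = 0.59 across 14432 genes, which are not independent replicates), while for the other 11 libraries this r lay between -0.35 and 0.10. Markers of the dentate gyrus and CA1 were nevertheless at hippocampal levels in all 12 libraries: Prox1, a transcription factor of dentate granule cells, was between 5.14 and 12.2 FPKM against 0.854 to 2.83 in the 24 hemisphere libraries, and the CA1 gene Fibcd1 between 30.5 and 45.9 FPKM against 5.52 to 8.37. Reads in genes ran from 14.4 to 20.9 M (M is 1000000), and group differences did not pass the test for reads (exact permutation p = 0.437), genes above 0 (exact permutation p = 0.461) or mitochondrial share (exact permutation p = 0.950; two-sided, smallest possible p 0.00216). Without the 2 libraries that list few genes, the mean number of genes above 0 differed by -1425 genes, both drugs minus angiotensin II (two-sided exact permutation p = 0.0238, unadjusted over these measures).

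**Figure D1:**
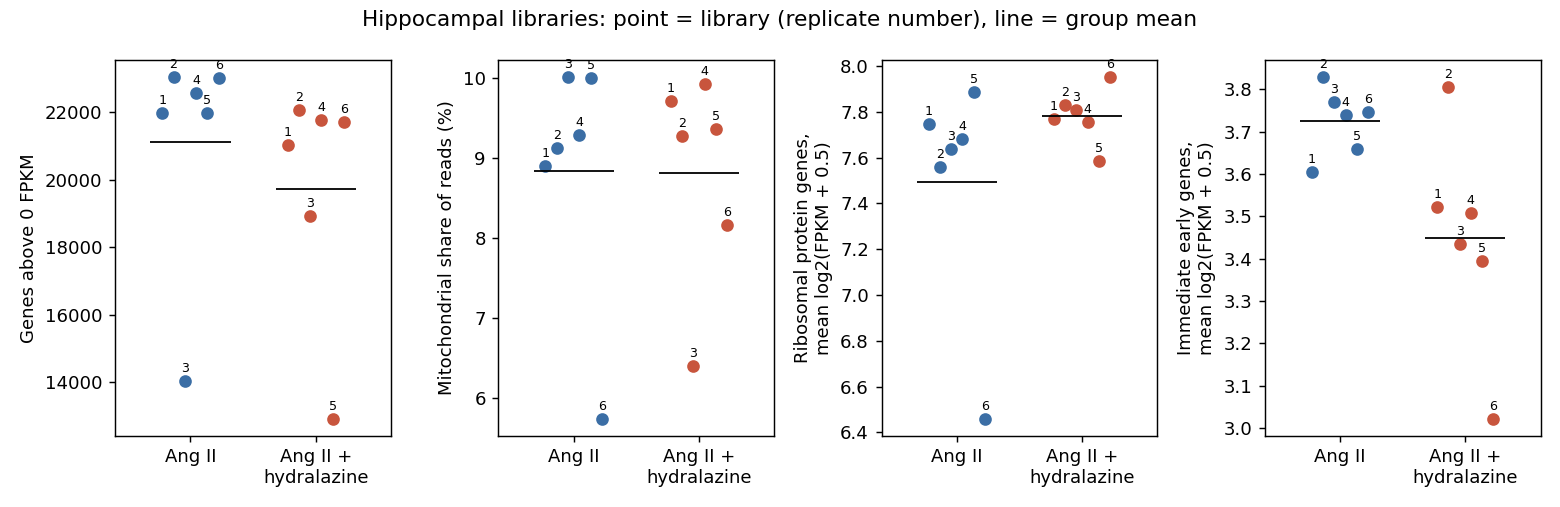
Genes above 0 FPKM, mitochondrial share of reads (%), and the mean log2(FPKM + 0.5) of ribosomal protein and immediate early genes in each hippocampal library. Points are libraries with their replicate number and lines are group means; angiotensin II library 3 (14043 genes) and both-drug library 5 (12915 genes) list few genes, and angiotensin II library 6 has the lowest mitochondrial share (5.74%).

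Without these 3 libraries, 4 angiotensin II and 5 both-drug libraries remained. In this repeat, again 0 of 14141 genes (0%) passed with limma, and the smallest adjusted p was 0.834. Unadjusted p-values under 0.05 were seen for 685 genes, 339 lower (2.40%) and 346 higher (2.45%), of which 181 were also among the 527 of the full comparison (34.3% of the 527 and 26.4% of the 685). Of 63 genes examined by name, 51 had a difference closer to 0 in the repeat than over 12 libraries, and for 33 the value moved by over 1.5 times or turned sign. The intervals were narrower: 96.5% of genes had a 95% interval within 2-fold and 87.5% within 1.5-fold.

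Immediate early genes were the list with the lowest median among the 39 lists that had at least 8 tested members. Choroid plexus markers, with only 5 tested, had a lower median (-0.235 against -0.231, and -0.41 against -0.25 in the repeat). Without both-drug library 6, interferon-induced genes had the lower median (-0.25 against -0.24). All 25 immediate early genes were tested, and 22 of them averaged lower with both drugs, where 53.1% of all genes did. Their median log2 difference was -0.23 against -0.02 over all genes. In the repeat the median was -0.25 and 22 were lower, where 48.6% of all genes were. They were not the same 22: Nr4a3 (0.05) and Dusp5 (9.5e-05) turned higher, and Fosl2 (-0.13) and Ier5 (-0.16) turned lower. None of the 25 passed adjustment. An unadjusted p under 0.05 was reached by 9, all lower, where 1.93% of all genes were lower at that threshold. The repeat had 4, all lower, where the share over all genes was 2.40%. Of these, Junb and Dusp1 were among the 9, while Nr4a2 and Ier5 were not. The promoters of 4 immediate early genes are shown because they carry CRE letters and because these genes lie among the 9 (Dusp1, Btg2, Npas4, Nr4a1). They are copied from RefSeq for GRCm38.p6 and run from 250 bases before to 50 bases after the annotated start, 5′ to 3′ on the gene's strand. Capitals mark TGACG, the CRE half-site, on either strand, and TGACGTCA, the palindromic CRE, which contains it on both strands. The windows are chr17:26508423-26508722 (minus strand) for Dusp1, chr1:134079106-134079405 (minus strand) for Btg2, chr19:4989922-4990221 (minus strand) for Npas4 and chr15:101266596-101266895 (plus strand) for Nr4a1.
Dusp1: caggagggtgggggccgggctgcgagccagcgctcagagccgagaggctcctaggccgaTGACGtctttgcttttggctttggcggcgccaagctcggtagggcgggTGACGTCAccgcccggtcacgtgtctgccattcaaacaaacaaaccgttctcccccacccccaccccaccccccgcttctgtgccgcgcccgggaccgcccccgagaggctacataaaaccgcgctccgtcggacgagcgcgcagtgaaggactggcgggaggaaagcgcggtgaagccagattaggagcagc
Btg2: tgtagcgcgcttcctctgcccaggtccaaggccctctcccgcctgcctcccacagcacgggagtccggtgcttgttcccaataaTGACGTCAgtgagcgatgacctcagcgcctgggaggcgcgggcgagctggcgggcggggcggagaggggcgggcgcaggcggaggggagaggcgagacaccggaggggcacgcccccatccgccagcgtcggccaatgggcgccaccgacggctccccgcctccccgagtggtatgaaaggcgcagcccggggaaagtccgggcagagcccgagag
Npas4: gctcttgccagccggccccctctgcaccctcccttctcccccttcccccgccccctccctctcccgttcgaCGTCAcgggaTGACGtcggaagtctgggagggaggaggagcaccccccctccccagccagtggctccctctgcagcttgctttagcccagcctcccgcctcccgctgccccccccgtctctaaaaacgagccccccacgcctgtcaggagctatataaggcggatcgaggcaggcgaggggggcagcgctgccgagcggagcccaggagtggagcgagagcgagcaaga
Nr4a1: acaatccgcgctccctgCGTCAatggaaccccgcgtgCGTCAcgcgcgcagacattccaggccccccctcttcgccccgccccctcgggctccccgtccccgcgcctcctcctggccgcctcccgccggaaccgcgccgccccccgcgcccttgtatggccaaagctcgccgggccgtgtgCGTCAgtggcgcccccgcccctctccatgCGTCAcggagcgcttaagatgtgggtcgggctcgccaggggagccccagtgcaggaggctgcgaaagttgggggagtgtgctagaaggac
Dusp1 and Btg2 each hold 1 palindromic CRE, and Npas4 and Nr4a1 hold 2 and 4 half-sites and no palindrome. Arc, Egr1, Egr3, Ier2 and Sik1 had no match by symbol in the RefSeq promoter table, and the other 20 of the 25 genes did. Among these, 15 (75.0%) had at least 1 TGACG in a promoter window, against 23.05% of 27025 genes with a window of this length. The palindrome was in 2 of the 20, against 2.03% of all genes, and the CArG box, searched on both strands, in 2 of the 20, against 1.81%. Some genes have several windows, and any of them counted. The 27025 genes are all those with a window, not only those tested here, and list members were not split by direction. The shares therefore do not bear on the differences between the groups. These matches describe letters in the windows, leave out sites beyond them, and carry no measure of binding.

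Among the feedback regulators, Dusp1, which encodes a phosphatase acting on MAP kinases, had a lowest, median and highest level of 7.20, 10.1 and 14.3 FPKM with angiotensin II, and of 3.85, 7.26 and 8.82 FPKM with both drugs. The groups overlapped, with both-drug library 6 lowest of all and only the upper part of the angiotensin II group clear of the other. Its log2 difference was -0.53 ± 0.20 (SE; 95% interval -0.97 to -0.09; unadjusted p = 0.0217 with limma) and -0.55 in the repeat. Btg2, an antiproliferative gene induced by neuronal activity, ran from 7.41 through a median of 10.9 to 13.4 FPKM with angiotensin II and from 4.56 through 7.42 to 12.3 FPKM with both drugs. Its difference was -0.51 ± 0.22 (SE) over 12 libraries and -0.23 in the repeat, where the interval ran from -0.68 to 0.22.

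The synaptic gene Arc, whose protein acts in AMPA receptor trafficking, had a lowest, median and highest level of 50.0, 65.9 and 80.9 FPKM with angiotensin II and 26.9, 44.0 and 79.5 FPKM with both drugs. A single both-drug library reached the top of the angiotensin II range while most lay below its bottom. The log2 difference was -0.60 ± 0.24 (SE) and, in the repeat, -0.37 with an interval from -0.96 to 0.21. Among the transcription factors, Egr1 lay between 44.1 and 59.0 FPKM (median 49.1) with angiotensin II and between 23.9 and 47.1 FPKM (median 42.1) with both drugs. Egr1 differed by -0.40 ± 0.15 (SE) over 12 libraries and by -0.28 in the repeat.

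Npas4, a neuron-specific activity factor, lay between 3.30 and 5.62 FPKM (median 4.57) with angiotensin II and between 2.04 and 4.64 FPKM (median 3.13) with both drugs. Here too the groups overlapped while their medians were apart, with a difference of -0.44 ± 0.18 (SE) and -0.41 in the repeat. The other 4 genes at this threshold, named after their values were seen, were Junb (-0.36), Nr4a1 (-0.52), Fosb (-0.40) and Egr2 (-0.85), all transcription factors. In the repeat these values were -0.42 for Junb, -0.23 for Nr4a1, -0.37 for Fosb and -0.34 for Egr2, and Fosb was -0.27 without both-drug library 6. Egr2 was the lowest of these in level, with medians of 0.941 and 0.515 FPKM, and its highest value, 4.17 FPKM, came from angiotensin II library 3, without which its difference was -0.57. Fos, the most used marker of recent neuronal activity, had medians of 7.69 and 6.28 FPKM and a wide interval (log2 difference -0.69, 95% interval -1.56 to 0.17). Its difference was -0.33 without both-drug library 6.

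**Figure D2:**
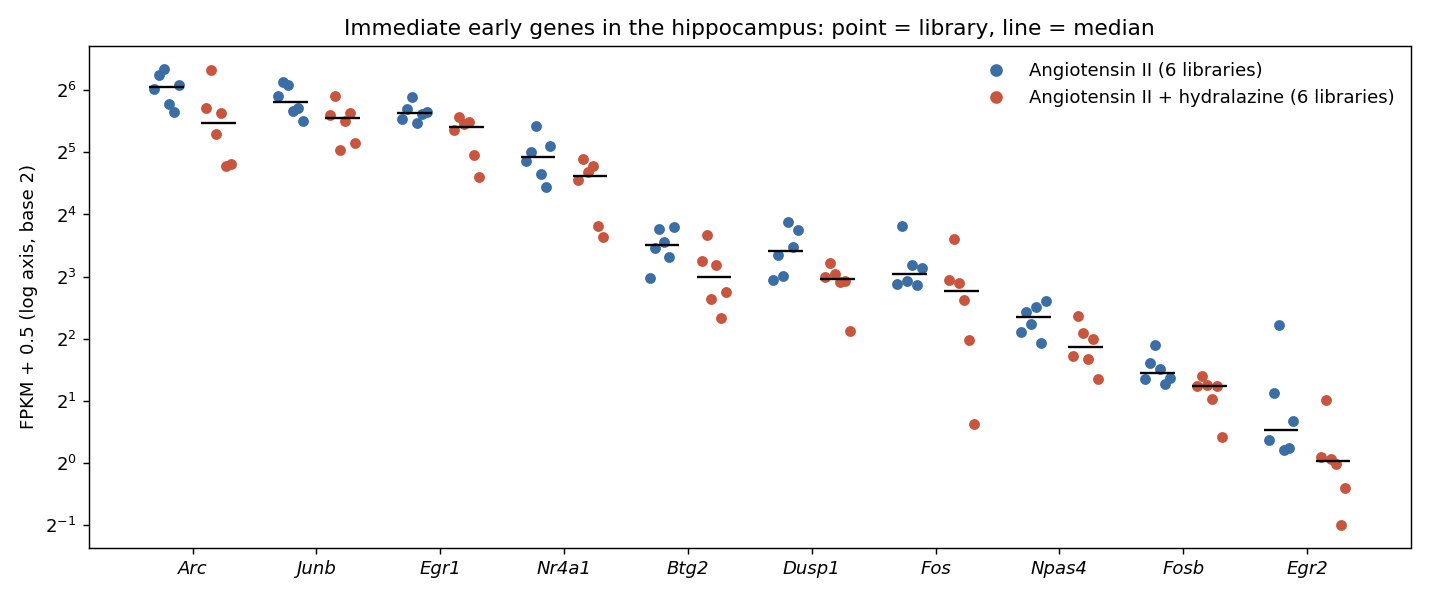
FPKM + 0.5 (log axis, base 2) of 10 immediate early genes in each hippocampal library of the angiotensin II and both-drug groups. Points are libraries and lines are medians; every both-drug median is below the angiotensin II median, as for Arc (44.0 against 65.9 FPKM), and the groups overlap for each gene.

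Taken over the whole list, the immediate early genes had a mean log2(FPKM + 0.5) between 3.60 and 3.83 in the 6 angiotensin II libraries. In the both-drug libraries this mean was 3.02 in library 6, 3.39 in library 5, 3.44 in library 3, 3.51 in library 4, 3.52 in library 1 and 3.81 in library 2. Thus 5 of the 6 both-drug libraries lay below every angiotensin II library and 1 lay within their range. The 6 hippocampal vehicle libraries had list means from 3.24 to 3.82, a range that overlapped both groups. Their median was 3.52, against 3.74 with angiotensin II, 3.47 with both drugs and 3.35 with vehicle plus hydralazine. Whether angiotensin II alone differed from vehicle for this list was not tested. In both-drug library 6, 19 of the 25 genes were below the lowest angiotensin II value, against 1 of 25 in both-drug library 2. Leaving out 1 library at a time kept the list median between -0.27 and -0.19, with 19 to 23 of the 25 genes lower. The number with an unadjusted p under 0.05 moved from 2 to 10, and it was 2 without both-drug library 6 and 2 without angiotensin II library 2.

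In the brain hemisphere, whose libraries are separate but may come from the same mice (not in the labels), the same comparison gave the opposite sign for much of this list. Of the 25 genes, 17 averaged higher with both drugs, with a median log2 difference of 0.08, and of the 22 that were lower in the hippocampus, 15 were higher in the hemisphere. Over all genes tested in the hemisphere 50.5% averaged higher, with a median of 0.0015. An unadjusted p under 0.05 with limma was reached by 3 of the 25, where 2.80% of all genes reached it in either direction. Hemisphere angiotensin II library 6 stood apart, with 2.77% mitochondrial reads against 5.84% to 6.66% in the other 5 of its group, and a mean log2 level of the list of 2.82 against 3.05 to 3.38. Without it, chosen after seeing the data, 15 of the 25 averaged higher with a median of 0.016. Dusp1 had a lowest, median and highest level of 5.88, 8.05 and 9.53 FPKM with angiotensin II in the hemisphere and 8.50, 9.67 and 19.4 FPKM with both drugs. Arc in the hemisphere ran from 18.0 through 24.5 to 29.8 FPKM with angiotensin II and from 23.3 through 33.7 to 74.3 FPKM with both drugs. Both genes thus had their higher median with both drugs in the hemisphere and with angiotensin II alone in the hippocampus.

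Whether the difference of both drugs minus angiotensin II itself differed between regions was tested in 1 fit of the 24 libraries. The value tested is the hippocampal difference less the hemisphere difference, not a level. Of 16666 genes 0 (0%) passed with limma (smallest adjusted p 0.858), and 618 (3.71%) had an unadjusted p under 0.05. For 376 of these (2.26%) the difference was lower in the hippocampus. Among the 25 immediate early genes, 21 had a lower difference in the hippocampus than in the hemisphere, where 56.1% of all genes did. Of the 21, 8 had an unadjusted p under 0.05, and the list median was -0.35. Without hemisphere angiotensin II library 6 these were 20 genes, 6 and -0.25. Ranked by p in this test, the leading 5 named genes included Dusp1 and Btg2. For Dusp1 the difference of differences was -0.998 (95% interval -1.59 to -0.41; unadjusted p = 0.00189 with limma) and -1.02 in the repeat. For Btg2 it was -1.01 and, in the repeat, -0.73. The other three were Zpr1 (0.39), a zinc finger protein, Ptbp1 (-0.82), a splicing repressor that is low in mature neurons, and Jpt1 (0.58), a microtubule-associated protein. This test uses the hippocampal libraries described above, so its values do not stand apart from them. The hemisphere comparison alone had 0 calls (0%) among 15840 genes with limma and 443 genes (2.80%) with an unadjusted p under 0.05.

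**Figure D3:**
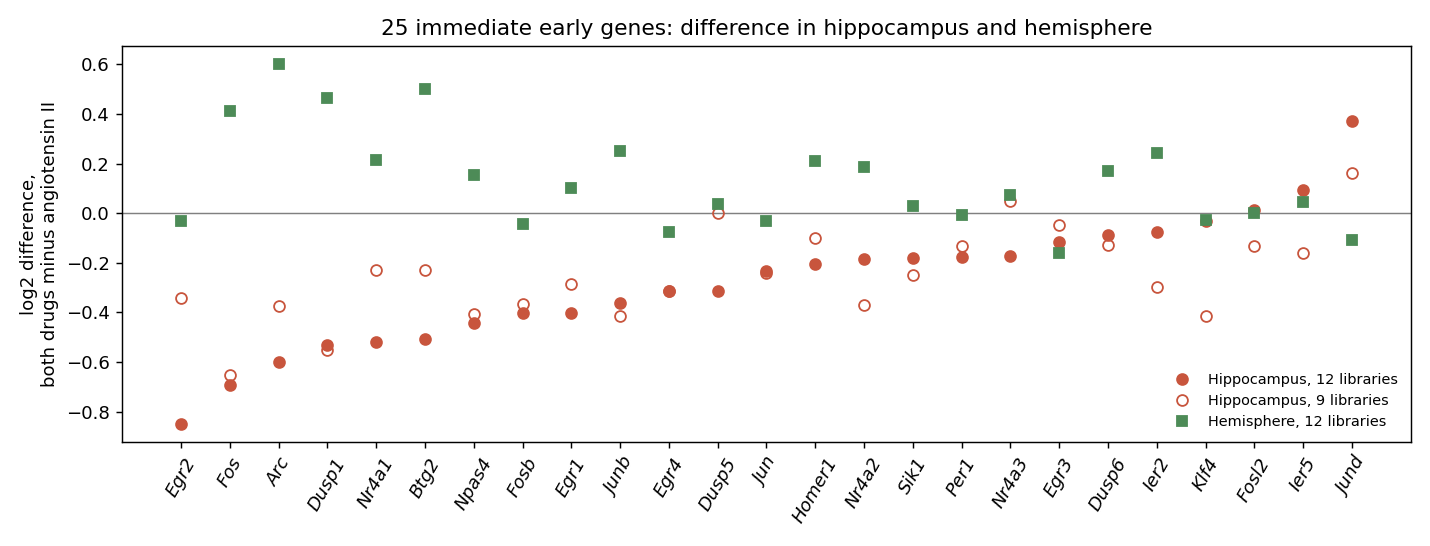
Log2 difference of both drugs minus angiotensin II for each of the 25 immediate early genes in the hippocampus (12 libraries, filled circles; 9 libraries, open circles) and the hemisphere (12 libraries, squares). In the hippocampus 22 genes lie below 0, and in the hemisphere 17 lie above 0.

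Named genes include the 20 protein-coding genes with the lowest p, and Gsk3a led them. It lies on chromosome 7 (25228258 to 25237851, GRCm38, minus strand) and encodes glycogen synthase kinase 3 alpha. Its level was 61.6, 71.7 and 75.1 FPKM (lowest, median, highest) with angiotensin II and 36.7, 52.9 and 58.7 FPKM with both drugs. Every both-drug library was below every angiotensin II library. The log2 difference was -0.47 ± 0.11 (SE; 95% interval -0.71 to -0.23; unadjusted p = 0.000927, adjusted p = 0.818 with limma), -0.54 in the repeat, and between -0.52 and -0.38 when 1 library was left out.

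Ppp1r9b (chromosome 11, 94991035 to 95006899), which encodes spinophilin, a scaffold of protein phosphatase 1 in dendritic spines, ran from 367 through 408 to 439 FPKM with angiotensin II and from 256 through 330 to 355 FPKM with both drugs. The groups did not overlap, and the difference was -0.35 ± 0.10 (SE) and -0.38 in the repeat. Elfn1, a synaptic adhesion protein of interneuron inputs, did not overlap between groups (3.75 to 5.75 FPKM with angiotensin II and 2.27 to 3.73 with both drugs; difference -0.46, -0.30 in the repeat). Both-drug library 3, which listed 18914 genes and had 6.40% mitochondrial reads, held the lowest value for Gsk3a and Ppp1r9b, and their differences without it were -0.38 and -0.29.

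Further genes that were lower with both drugs without overlap were Vps37b, a subunit of the endosomal sorting complex ESCRT-I (-0.69), the zinc finger gene Zfp933 (-0.44), and Rab22a, a GTPase of early endosomes (-0.30). Lower with overlap were Ptbp1 (-0.73), Fmnl1, a formin that builds actin filaments (-0.41), Mbd6, a methyl-CpG-binding domain protein (-0.32), Fxr2, a paralog of the fragile X protein (-0.27), and Acadl, an enzyme of mitochondrial fatty acid oxidation (-0.26). The log2 difference furthest from 0 among the 20 was that of Tmem132a, a membrane protein, at -1.51 (3.51 to 23.3 FPKM with angiotensin II and 1.02 to 4.30 with both drugs). Its highest value came from angiotensin II library 6, and without the 3 libraries the difference was -1.07. In the hemisphere the mean of Tmem132a with angiotensin II was 45.9 FPKM.

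Higher with both drugs were 6 of the 20. Pdlim7, a PDZ and LIM domain protein of the actin cytoskeleton, did not overlap (17.6 to 24.4 FPKM with angiotensin II and 25.2 to 32.2 with both drugs; difference 0.33). The other five overlapped: Alkbh3, a demethylase that repairs alkylated nucleic acids (0.45), Jpt1 (0.44), the lectin-like receptor ligand Clec2d (0.69), Fndc5, the precursor of irisin (0.40), and the beta-globin gene Hbb-bs (0.70). All 20 kept their sign in the repeat, which shares 9 of the 12 libraries, with values there of 0.20 for Pdlim7, 0.22 for Jpt1, 0.23 for Fndc5, 0.43 for Clec2d, 0.46 for Hbb-bs, -0.20 for Fmnl1 and Rab22a, -0.27 for Zfp933 and -0.34 for Ptbp1.

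**Figure D4:**
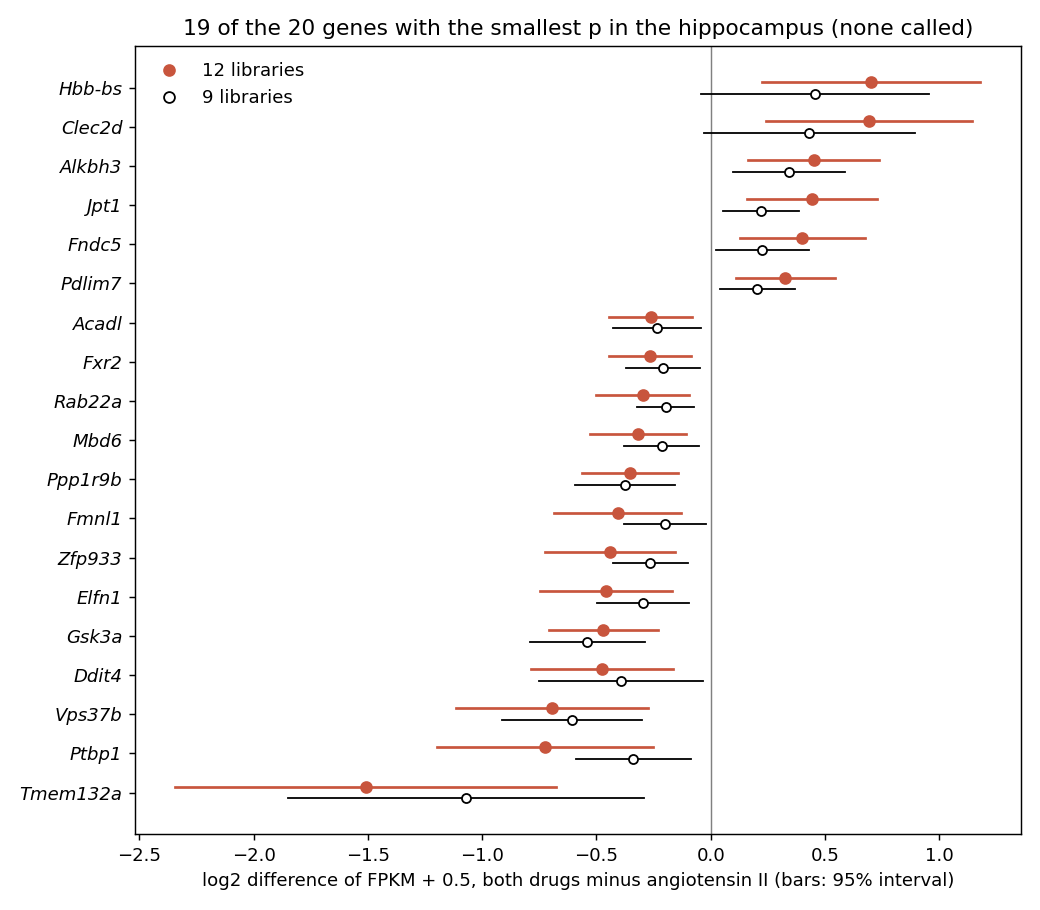
Log2 difference of both drugs minus angiotensin II with 95% intervals for 19 of the 20 named genes with the smallest p, over 12 libraries (filled) and over the 9 of the repeat (open). Tmem132a lies furthest from 0 (-1.51, -1.07 in the repeat), and Gsk3a has the smallest p (-0.47, -0.54 in the repeat).

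The 10 named genes with the smallest p in the repeat were Tmem151b (-0.80), the kinase gene Tesk1 (-0.88), Hddc2 (0.28), Cers1, a neuronal ceramide synthase (-0.76), Bckdha, a subunit of the branched-chain keto acid dehydrogenase (-0.58), Gsk3a (-0.54), Rtkn (-0.65), Hspa1b, an inducible HSP70 gene (-0.66), Hcfc1r1 (0.31) and Ankrd52, a regulatory subunit of protein phosphatase 6 (-0.77). For Hspa1b the near-identical Hspa1a makes the split of reads uncertain. Angiotensin II library 6, which the repeat leaves out, held the highest angiotensin II value for Tmem151b (30.4 FPKM), Tesk1 (10.8), Cers1 (22.2), Bckdha (5.38), Rtkn (5.28) and Ankrd52 (7.91), and the hemisphere means with angiotensin II were 36.1, 9.87, 18.2, 8.18, 5.29 and 8.22 FPKM. Over 12 libraries the differences were -0.92 for Bckdha and -1.01 for Hspa1b, and -0.48 and -0.45 without both-drug library 5. Bckdha, Hspa1b and Rtkn were listed at 0 in both-drug library 5, and Rtkn also in angiotensin II library 3.

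Whether hydralazine did the same without angiotensin II was examined in the 12 vehicle libraries of the hippocampus, 4 of which list few genes. Vehicle plus hydralazine library 3 held 1.21 M reads and 7805 genes above 0, the fewest of all. There hydralazine against vehicle gave 0 calls (0%) among 14198 genes with limma and 163 genes (1.15%) with an unadjusted p under 0.05. The interaction of the drugs over all 24 hippocampal libraries gave 0 calls (0%) among 15267 genes with limma (smallest adjusted p 0.931) and 366 genes (2.40%) with an unadjusted p under 0.05, and it shares the 12 libraries of the main comparison. The vehicle and vehicle plus hydralazine groups had mean Gsk3a levels of 61.3 and 63.5 FPKM, and the interaction was -0.52 (95% interval -1.01 to -0.03; unadjusted p = 0.0401 with limma), and -0.65 in the repeat without libraries listing few genes and angiotensin II library 6. For Ppp1r9b these means were 370 and 403 FPKM and the interaction -0.47, and -0.48 in the repeat. Jpt1, with means of 56.9 and 50.3 FPKM, ranked among the leading 5 named genes by p for the interaction (0.64 over all 24 libraries and 0.13 in the repeat). For the 25 immediate early genes the median log2 difference between vehicle plus hydralazine and vehicle was -0.13, with 17 lower. Over all genes the median was -0.12, with 64.9% lower.

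Postsynaptic scaffold genes were lower in 14 of 18, with a median of -0.11 (-0.08 in the repeat, -0.064 without both-drug library 3 and -0.053 with the gene length trend removed). An unadjusted p under 0.05 was reached by 3, all lower (1.93% of all genes), among them Dlg4, the PSD-95 gene (-0.29), and Shank3, a scaffold of the postsynaptic density (-0.41). Dlg4 ran from 84.1 through 89.2 to 101 FPKM with angiotensin II and from 49.9 through 76.8 to 98.6 FPKM with both drugs. Both-drug library 3 was lowest for both genes, and without it Dlg4 was -0.18, a smaller difference by over 1.5 times. Shank3, highest in angiotensin II library 6, was -0.27 without that library. Glutamate receptor subunits had a median of -0.09, which was 0.01 in the repeat.

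Markers of hippocampal cell fields showed small differences. The medians were -0.11 for dentate granule cell markers (8 of 10 lower), -0.03 for CA1 markers and -0.06 for CA2 and CA3 markers. In the repeat the CA1 median was 0.04 and that of CA2 and CA3 was 0.11. Prox1 differed by -0.31 (95% interval -0.67 to 0.06; -0.14 in the repeat) and the CA1 gene Wfs1 by 0.10 (-0.12 to 0.32). In bulk tissue, fewer cells of a type and less RNA per cell cannot be told apart.

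Genes of translation and nuclear genes of respiration averaged higher with both drugs, by an amount that rested on 1 library. Cytosolic ribosomal protein genes were higher in 46 of 48, with a median of 0.31, and 0 of the 48 had an unadjusted p under 0.05 with limma. Without angiotensin II library 6 the median was 0.11. In the repeat 45 of 48 were higher, 4 of them with an unadjusted p under 0.05 (2.45% of all genes). The mean log2 level of this list was 6.46 in that library and between 7.56 and 7.95 in the other 11. Nuclear respiratory chain genes were higher in 34 of 38 with a median of 0.19, and 0.04 without that library. Mitochondrially encoded genes were higher in 9 of 13, with a median of 0.03. Without angiotensin II library 6 their median was -0.13, and in the repeat it was -0.13 with 10 of 13 lower.

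Vascular genes are of interest because hydralazine acts on arteries. Endothelial cell markers were higher in 18 of 27 (median 0.08, 0.09 in the repeat) and pericyte and smooth muscle markers in 12 of 16 (0.15, and 0.14 in the repeat with 15 of 16 higher), and 0 of either list had an unadjusted p under 0.05 over 12 libraries with limma. The endothelial median was 0.040 without both-drug library 4, and the pericyte and smooth muscle median 0.067 without angiotensin II library 3. Cldn5, a tight junction gene of brain endothelium, ran from 32.4 through 44.6 to 63.9 FPKM with angiotensin II and from 46.3 through 58.7 to 65.7 FPKM with both drugs (difference 0.30, 95% interval -0.04 to 0.64; 0.093 in the repeat). Edn1, the gene of the vasoconstrictor endothelin-1, ran from 0.344 through 0.991 to 1.66 FPKM with angiotensin II and from 0 through 1.27 to 3.43 FPKM with both drugs. The 0 belonged to both-drug library 5, which lists few genes. The difference of Edn1 was 0.31 over 12 libraries (95% interval -0.64 to 1.27), 0.087 without both-drug library 4, 0.81 in the repeat and 1.17 in the hemisphere. The endothelial genes Itm2a and Cxcl12 differed by 0.11 and 0.05, and Cxcl12 by -0.10 in the repeat. Of 4 tested blood cell markers 3 were higher and 1 (Hbb-bt, -0.24) lower. An unadjusted p under 0.05 with limma was reached by 2, both higher, where 1.72% of all genes were higher at that threshold. The median, 0.74, was 0.36 without angiotensin II library 3 and 0.95 without angiotensin II library 5. Hba-a1, an alpha-globin gene with a near-identical copy, ran from 18.3 through 38.3 to 70.9 FPKM and from 37.3 through 73.7 to 104 FPKM (difference 0.87, 0.69 in the repeat), and the mean log2 level of the 4 markers ranged from 2.94 to 5.02 with angiotensin II and from 2.80 to 5.37 with both drugs. The part of residual blood in the vascular differences was not tested.

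Targets of the hypoxia-inducible factor HIF were split, with 11 of 22 tested members higher and a median of -0.01. The 3 with an unadjusted p under 0.05 were lower (1.93% of all genes): Ddit4, an inhibitor of mTORC1 (-0.48), Vegfa, the main angiogenic growth factor (-0.49), and P4ha1, a collagen prolyl hydroxylase (-0.43). P4ha1 was -0.17 in the repeat, and its lowest value came from both-drug library 5. Ddit4 ran from 40.0 through 44.9 to 56.1 FPKM with angiotensin II and from 24.7 through 33.5 to 44.8 FPKM with both drugs. Most both-drug libraries were below the angiotensin II range. Vegfa had medians of 5.63 and 3.87 FPKM, and its highest value, 10.9 FPKM, was again in angiotensin II library 6 (-0.42 in the repeat). Hif1a itself differed by 0.19 (-0.10 to 0.47; 0.067 without angiotensin II library 3) and Hmox1, which encodes heme oxygenase 1, by 0.51 over 12 libraries and -0.14 in the repeat. Enzymes and readers of DNA methylation had a median of -0.05, which was -0.17 without the libraries that list few genes and -0.015 without angiotensin II library 6. Dnmt1 was at -0.19 (-0.59 to 0.21), between -0.32 without angiotensin II library 3 and -0.082 without angiotensin II library 6, and Dnmt3a at -0.11 (-0.40 to 0.18).

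Immune and glial genes gave no call. Microglia markers had a median of 0.12 that was 0.01 in the repeat, with Aif1 at 0.57 (0.30 in the repeat) and the lysosomal gene Cd68 at -0.13 (-0.66 to 0.39). Of 9 genes of MHC class II presentation 5 were tested, and 2 had an unadjusted p under 0.05 and were higher (1.72% of all genes): Cd74, the invariant chain, at 0.77 and H2-Ab1 at 0.84, with 0.35 and 0.38 in the repeat. Both were highest among angiotensin II libraries in library 4 (4.66 and 1.78 FPKM), which also had 1979 FPKM of the choroid plexus gene Ttr, against 0 to 158 FPKM in the other 11 libraries. The part of choroid plexus tissue in these values was not tested. Gfap, the astrocyte filament gene, had medians of 111 and 110 FPKM and a difference of 0.02 (-0.20 to 0.25). Of the renin-angiotensin system 6 of 13 genes were tested, with a median of 0.00, and Agt, the angiotensinogen gene, differed by 0.12 (-0.24 to 0.47) and Ace, the converting enzyme, by -0.64 (-1.53 to 0.25), which was -0.36 without both-drug library 5.

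**Figure D5:**
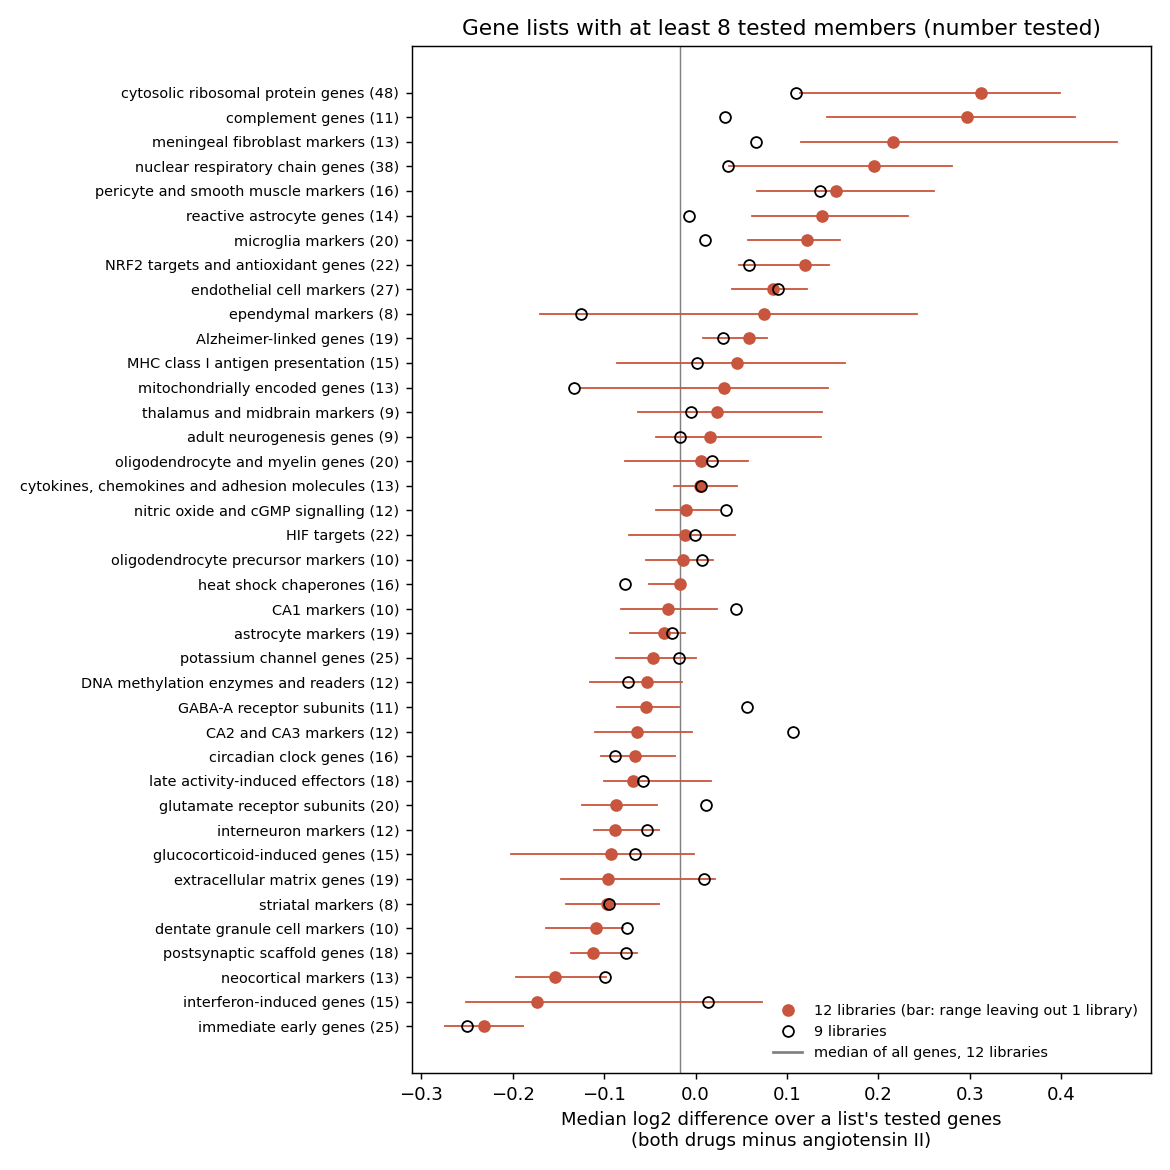
Median log2 difference of both drugs minus angiotensin II for the 39 gene lists with at least 8 tested members, over 12 libraries (filled, with the range when 1 library is left out) and over the 9 of the repeat (open). The grey line is the median of all genes (-0.02); immediate early genes lie lowest (-0.23) and ribosomal protein genes highest (0.31, 0.11 in the repeat).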

How the data were processed

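RNA was extracted from the hippocampus or brain hemisphere and total RNA libraries were prepared by a sequencing company, as the labels' protocols state. The files the authors deposited hold FPKM per gene for 48 libraries, with gene lengths. The submitters' processing notes name GRCm38 and mm10 as builds and list DESeq 1.10.1. For alignment, counting and strand handling, tools were not given in the sources read, and overlapping genes and near-identical copies are therefore uncertain. Each deposited FPKM times the gene length was a whole multiple of 1 read for 99.9984% of values above 0 (tolerance 0.1), which gave the reads per library, 14.4 to 20.9 M (M is 1000000) in the 12 libraries compared and 1.21 to 23.5 M in all 48, used only for depth. No count model was used.

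Values were analysed as log2(FPKM + 0.5), which understates differences of low genes. A fit took genes that reached 0.5 FPKM in 6 or more of its libraries, and limma 3.58.1 under R 4.3.3 tested them (mean-variance trend, robust prior, two-sided, Benjamini-Hochberg over all genes tested, called under 0.05). The same fit was tested on simulated reads, drawn from a common mean profile with even spread. The simulation held no libraries that stand apart, so it does not speak of how the fit handles them. All 30 pairs of libraries within a group differed by more than sampling noise (chi-square per gene of at least 5.35). The repeat left out libraries listing fewer than 16000 genes and angiotensin II library 6. Named genes were the 20 smallest p-values among protein-coding genes (no clone names, a group mean of 1 FPKM or more), the 10 smallest in the repeat, the 5 smallest for the interaction and for the region difference, up to 4 members per list, and a set of fixed genes, from which the text gives examples. Some of them are not reported here. The 47 lists hold 809 genes, 806 of them in the table, and only members that passed the filter are counted. A member can pass through 1 group alone, so list counts and medians are descriptions. Members, lists and named genes were chosen with earlier results of these data known.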

Additional observations from a re-analysis of the deposited data

Results flagged for a closer look

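Within-group gaps were examined for 144 sets of 6 libraries (technical measures, list means and the named genes in each of the 2 groups), and in 36 of them a single library lay far from the other 5. The rule used flags about 1 in 20 sets of independent, normally distributed values. These sets share libraries, hold untransformed FPKM and include genes named by their p, so the count is a description only.

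Angiotensin II library 6 accounted for 13. It had the lowest mitochondrial share (5.74%, next 8.91%) and the lowest mean log2 level of ribosomal protein genes (6.46, next 7.56). Its FPKM was high for Tmem132a (23.3, next 8.22), Vps37b (8.23), Tmem151b (30.4), Cers1 (22.2), Rtkn (5.28), Ankrd52 (7.91), Vegfa (10.9), Dnmt3a (3.23) and Shank3 (52.0, next 30.9), and low for Pdlim7 (17.6) and Hcfc1r1 (57.8, next 129.8).

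Both-drug library 5 accounted for 10. It listed 12915 genes above 0 (next 18914), had the lowest mean log2 level of blood cell markers (2.80, next 4.68), and was low for Elfn1 (2.27 FPKM), Rab22a (4.05), Hddc2 (4.24), P4ha1 (6.55), Bckdha (0) and Hspa1b (0), but high for Tmem151b (11.7) and Ankrd52 (1.45). Angiotensin II library 3 had 14043 genes above 0 and 14.4 M reads (M is 1000000), the lowest of its group, high Rab22a (7.16 FPKM) and Egr2 (4.17) and low Hif1a (4.94).

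Angiotensin II library 4 was high for Ttr (1979 FPKM, next 158), Cd74 (4.66) and H2-Ab1 (1.78), and library 2 for Fos (13.6). Both-drug library 3 was high for Ttr (29.2 FPKM) and Gfap (152, next 114), library 2 for Egr2 (1.51), and library 6 low for Dusp1 (3.85, next 7.07). The part of these libraries in the results was not tested beyond the values printed with a library left out.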

How the results depend on the processing

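No gene was called with limma in the main comparison, the interaction or the region difference under any alternative run (smallest adjusted p 0.202, 0.200 and 0.130). Genes with an unadjusted p under 0.05 in the main comparison numbered 527, 1023 with library weights, 252 in a fit of all 24 hippocampal libraries and 356 to 703 with 1 library left out. For the interaction they numbered 366, 578 without a filter, 771 with library weights and 270 to 560 with 1 library left out (560 without vehicle plus hydralazine library 6). For the region difference they numbered 618, 1110 without a filter, 1048 with library weights and 432 to 887 with 1 library left out. The cause was not tested.

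With the replicate number as a block the calls stayed at 0, and unadjusted p under 0.05 was reached by 503 genes in the main comparison, 347 in the interaction and 541 in the region difference (423 with a block within treatment across regions, chosen after seeing the data). Whether the numbers pair the samples is not settled by these few values. Deviations of same-numbered libraries correlated by -0.18 to 0.14, over 0.1 in 1 of 6 pairs. In each group 1 library correlated best with its own number. In the hippocampus, library 3 listed 12322 genes with vehicle, 14043 with angiotensin II, 7805 with vehicle plus hydralazine and 18914 with both drugs. Angiotensin II library 6 had the lowest mitochondrial share of its group in hippocampus (5.74%) and hemisphere (2.77%).

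Of 63 named genes, 57 kept their sign in every alternative run. Agt became -0.063 with library weights and -0.038 in the repeat. Cxcl12 became -0.041 with weights, -0.10 without the libraries with few genes, -0.10 in the repeat, and -0.047 to 0.13 with 1 library left out. Gfap became -0.066 with weights, -0.10 with quantile normalization, and -0.057 to 0.056 with 1 left out. Cd68 became 0.10 without the libraries with few genes, and -0.24 to 0.091 with 1 left out. Hmox1 became -0.034 without the libraries with few genes and -0.14 in the repeat, and Dnmt3a 0.026 in the repeat. The group difference in mitochondrial share (-0.04 percentage points) became 0.087 without the libraries with few genes, and -0.66 to 0.45 with 1 left out. The median of immediate early genes was -0.15 with library weights. In the 12-library fit, log2 differences fell with gene length (Spearman rho -0.22 across genes). This rho was -0.05 without angiotensin II library 6, -0.37 without the libraries with few genes and -0.11 in the repeat. Depth limits low genes, since a single read on 1 kb of sequence equals 0.0491 to 0.0730 FPKM across the 12 libraries. Why some libraries list few genes was not tested.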
